A study of Mus musculus with 6 samples.

Results

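The genes described here activate fatty acids and break them down inside mitochondria, and their transcripts were measured in brain tissue of epileptic mice. Epilepsy had been induced with kainic acid, which activates glutamate receptors and triggers seizures. They are 37 genes chosen by symbol for their place in the pathway, out of 36079 genes in the table, and every one of them had a row. Of these, 34 averaged 0.5 FPKM or more across the 6 libraries and entered the test, among 16009 genes tested in all. FPKM scales fragments to the length of the gene and to sequencing depth. Levels of different genes can be set side by side only as far as the length used matches the transcripts present. Both groups had been treated with kainic acid. The chow group (3 mice, labelled CD) and the ketogenic group (3 mice, labelled KD) were kept on their diets for 3 weeks, and the temporal lobe was profiled. The ketogenic diet is rich in fat and poor in carbohydrate. The sample labels give the tissue as brain and state neither strain, age nor sex, and there was no group without kainic acid.

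A fatty acid is first joined to coenzyme A by a long-chain acyl-CoA synthetase (the Acsl enzymes). The carnitine shuttle, made of carnitine palmitoyltransferase 1 on the outer membrane, the carrier Slc25a20 and carnitine palmitoyltransferase 2 on the inner membrane, then moves the acyl chain into the mitochondrion. There, acyl-CoA dehydrogenases of differing chain-length preference start each round of beta-oxidation and hand their electrons to the electron transfer flavoprotein, while the trifunctional protein and matrix enzymes complete the round and release acetyl-CoA. In brain the pathway is known mainly from astrocytes, and neurons are held to oxidise little fatty acid. A ketogenic diet is known to raise fatty acid oxidation in the liver, which then exports ketone bodies.

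The libraries differed in their levels of regional markers, and what part this has in the results below was not tested. Recovered reads per library ran from 39927217 to 55910355, and a tested member had a median of 1274.5 reads per library. Markers of neurons were present in every library, and the summed FPKM of 8 excitatory neuron markers was 358 in chow replicate 1 and 589 to 998 in the other libraries. Chow replicate 1 stood apart with 383 FPKM summed over 8 thalamic markers, against 73.1 FPKM in chow replicate 3 and 20.6 to 31.8 FPKM in the rest. Over 7 oligodendrocyte markers it had 2181 FPKM, against 630 to 1437 FPKM elsewhere. The sum of 8 astrocyte markers was 392 FPKM there and 338 to 407 FPKM in the other libraries. However, 5 of these 8 had their highest value in chow replicate 1, whereas Slc1a2 and Slc1a3 were lowest there, at 166 and 45.9 FPKM. The median deviation of the astrocyte markers from their own means was 0.35 in chow replicate 1 on the log2 scale, and -0.18 to 0.16 elsewhere. Choroid plexus markers summed to 860 and 1935 FPKM in chow replicates 1 and 3, to 1107 FPKM in ketogenic replicate 3, and to between 3.97 and 7.82 FPKM in the rest. Striatal markers summed to 564 FPKM in chow replicate 2 and 503 FPKM in ketogenic replicate 2, and to between 24.9 and 139 FPKM in the others. Genes of heart and striated muscle, tissues rich in beta-oxidation, summed to 50.7, 24.9 and 32.0 FPKM on chow and to 8.09, 10.8 and 18.5 FPKM on the ketogenic diet, and all ketogenic values lay below all chow values in 6 of the 7 tested, as in 7.49% of all genes tested. The sums of 8 fat cell markers, of which 2 passed the filter, were 3.51, 2.68 and 2.47 FPKM on chow. On the ketogenic diet they were 4.32, 3.41 and 8.30 FPKM. All ketogenic values lay above all chow values in Fabp4, Adipoq, Cidec, Lep and Plin1, at low levels, and the groups overlapped in Cidea, Retn and Ucp1. Of the separate genes only Fabp4 was tested, and 4.9% of all genes tested were higher without overlap. In bulk tissue, fewer cells of a type and less RNA per cell cannot be told apart.

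The question was whether genes of mitochondrial fatty acid breakdown differed in the epileptic brain between the diets. Most members had a lower mean on the ketogenic diet by a small margin, and the neuronal isoform Cpt1c was the clearest exception. Of the 34 tested members, 28 had a negative log2 change (ketogenic minus chow, on log2(FPKM + 0.5)), where 56.9% of all 16009 genes did. The median change of the members was -0.15 on the log2 scale, beside -0.04 over all genes tested. Changes ran from -0.57 for Cpt2 to 0.36 for Cpt1c, and 8 members lay within 0.1 of no change. No member passed limma's test with Benjamini-Hochberg adjustment over all genes, where the smallest adjusted p of a member was 0.752, and 0% of all genes passed (0 of 16009, smallest adjusted p = 0.22).

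At an unadjusted p under 0.05 there were 3 lower members, Acadm, Etfa and Hadhb, and 1 higher member, Cpt1c, where 3.32% of all genes tested were lower and 2.06% higher by the same rule. The values in all 3 ketogenic mice lay below those of all 3 chow mice in 4 tested members, Acadm, Acad11, Etfa and Slc25a20, which is 11.8% of those tested beside 7.49% of all genes. They lay above in 1, Cpt1c, or 2.94% beside 4.9% of all genes. Each of these counts is of 4 genes or fewer, and none of those genes passed the adjusted test. By the same limma test, 861 of all genes had an unadjusted p under 0.05, and limma's voom on recovered reads also called 0 genes, with 858 at an unadjusted p under 0.05.

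**Figure D1:**
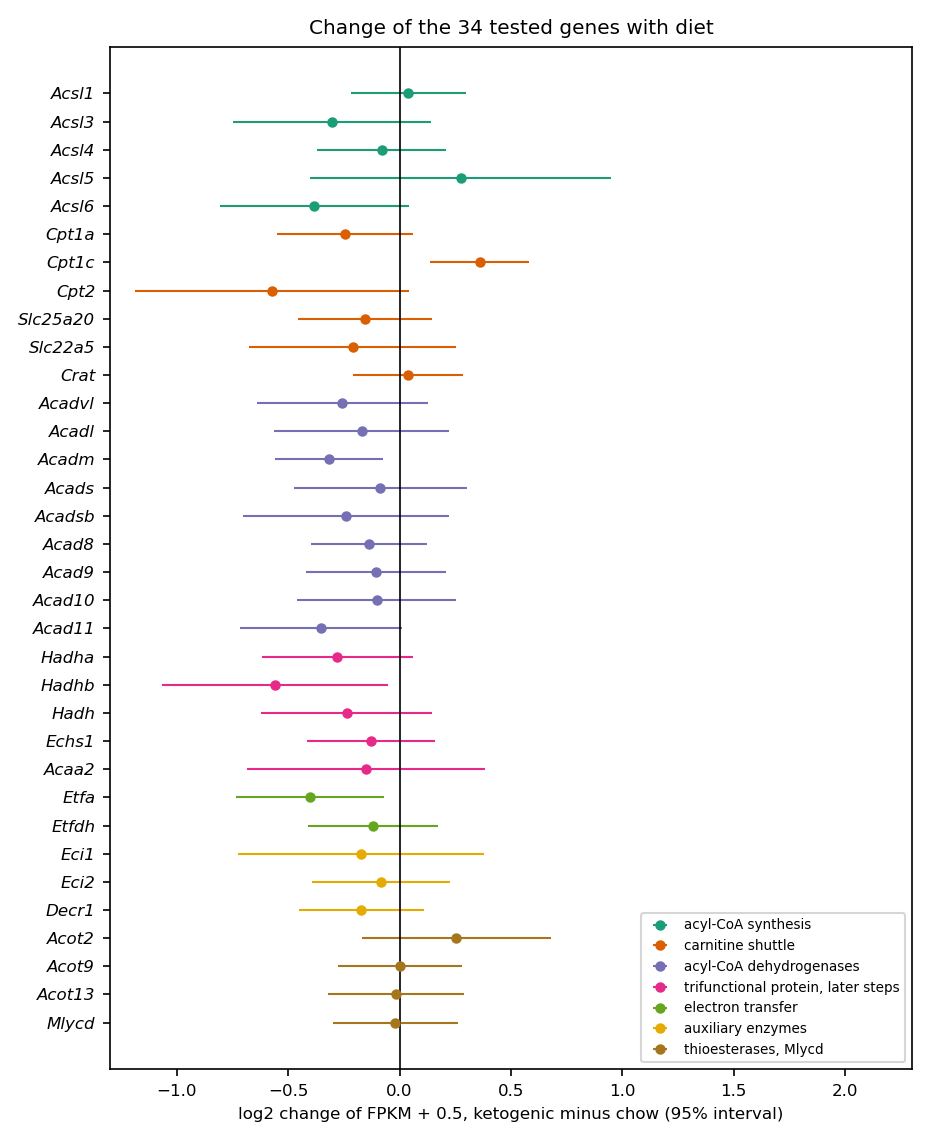
Log2 change of FPKM + 0.5 (ketogenic minus chow, horizontal axis) for the 34 tested genes in pathway order, with points for limma's estimate over 3 mice per diet and bars for its 95% interval, coloured by step. Most points lie left of 0 within intervals that reach across it, and Cpt1c lies to the right at 0.36.

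Much of this difference came with chow replicate 1, which held the highest value of the 6 in 22 of 34 tested members, or 64.7%, where it did so in 29.6% of all genes tested. The median deviation of the members from their own means was 0.22 in chow replicate 1 on the log2 scale, -0.01 and 0.04 in chow replicates 2 and 3, and -0.12, -0.12 and 0.03 in ketogenic replicates 1, 2 and 3. The diets therefore overlapped, with ketogenic replicate 3 above chow replicate 2. Without chow replicate 1 the median change was -0.08 and 26 of 34 members were lower, beside 56.5% of all genes. With the thalamic marker level as a covariate the median was -0.05 and 23 of 34 were lower, beside 53.1% of all genes. With the choroid plexus level instead, the median was -0.09 and 29 were lower, beside 54.3% of all genes. All 8 thalamic and all 8 choroid plexus markers themselves had negative changes (medians -1.65 and -1.08). The thalamic level was 2.79, -0.84 and 0.62 on chow against -0.72, -1.10 and -0.72 on the ketogenic diet. These covariates thus go partly with diet and may take up part of its difference. Wherever they are used here, region and diet cannot be told apart. Without chow replicates 2 or 3 in turn, 27 and 28 members were lower, beside 58% and 55.5% of all genes. Without ketogenic replicates 1, 2 or 3 in turn, 26, 29 and 27 were lower, beside 55.8%, 54.8% and 58% of all genes. The largest median among these was -0.23, without ketogenic replicate 3. After centring each library on its median gene, 26 of 34 members were lower (median -0.10) where 46.6% of all genes were, and quantile normalization gave a median of -0.10. What part the regional make-up of the libraries, or the heart and muscle transcripts, has in the lower values was not tested.

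**Figure D2:**
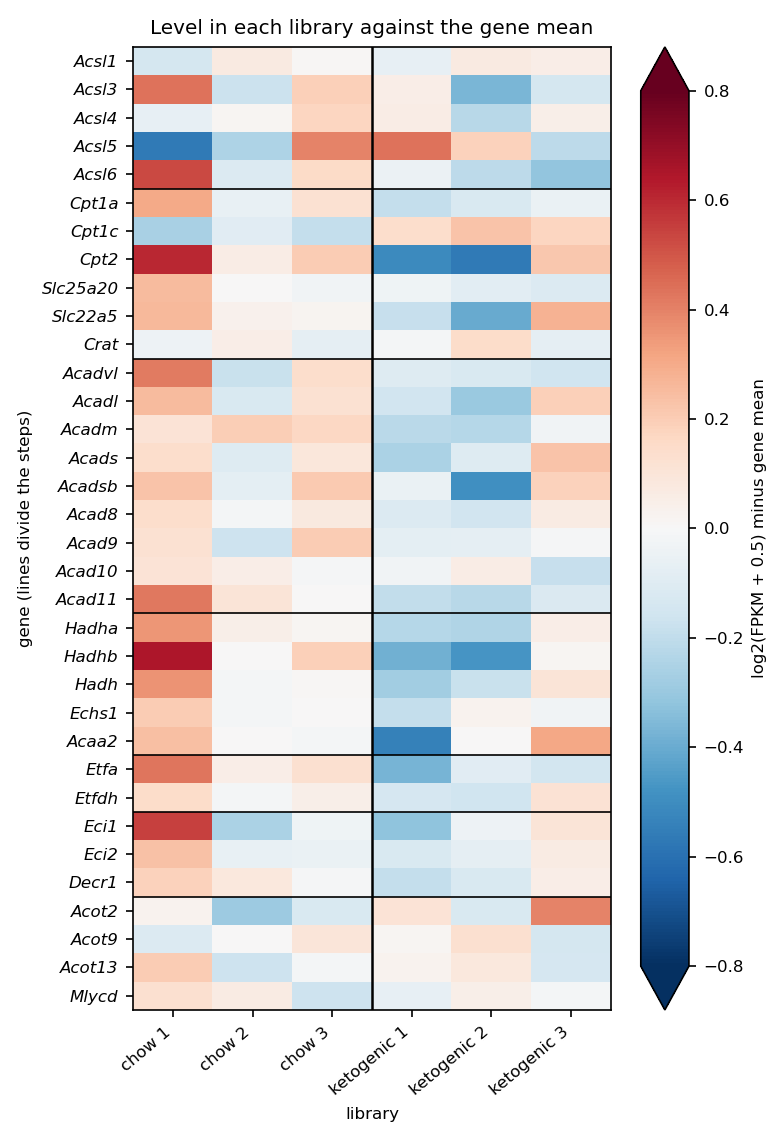
Deviation of each tested gene (rows, in pathway order) from its mean over the 6 libraries (columns), on the log2(FPKM + 0.5) scale, with red above and blue below the mean. Chow replicate 1 is red in most rows, whereas ketogenic replicates 1 and 2 are blue in most.

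Among the enzymes that activate fatty acids, Acsl3 and Acsl6 had lower means on the ketogenic diet and Acsl5 a higher one, all with overlapping groups. Acsl3 (ENSMUSG00000032883), a synthetase of the endoplasmic reticulum and lipid droplets, had the highest mean FPKM of all 37 members. It measured 79.2, 52.0 and 67.0 FPKM in chow mice against 60.6, 45.4 and 53.0 FPKM on the ketogenic diet. Chow replicate 1 was highest and the diets overlapped, with a log2 change of -0.30 ± 0.18 (SE, n = 3 per diet), which was -0.16 without that library and -0.01 with the thalamic covariate. Acsl6, known to channel docosahexaenoic acid into brain lipids, measured 25.5 ± 5.84 FPKM (SD, n = 3) on chow and 19.2 ± 1.87 FPKM on the ketogenic diet. Its log2 change of -0.38 was -0.21 without chow replicate 1 or -0.09 with the thalamic covariate. Acsl5, a synthetase found also on mitochondria, ranged from 6.11 to 12.7 FPKM and was lowest in chow replicate 1 and highest in ketogenic replicate 1. Its change of 0.28 went to 0.06 without chow replicate 1 and 0.08 with the covariate. Acsl4, which prefers arachidonic acid, had a change of -0.08 (95% interval -0.37 to 0.21). Acsl1, the main isoform of fat and heart, had one of 0.04 (-0.22 to 0.30).

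Shares of the summed synthetase FPKM differed between the diets by about the spread between mice or less. Acsl3 made up 51.7 ± 3.71% (SD, n = 3) of the summed Acsl FPKM in chow mice against 48.8 ± 2.26% on the ketogenic diet. Acsl6 contributed 19.95 ± 2.18% and 17.8 ± 1.35%, and Acsl4 17.0 ± 2.87% and 18.6 ± 1.39%. Acsl5 contributed 6.97 ± 2.53% and 9.61 ± 1.79%.

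The isoforms of carnitine palmitoyltransferase 1 had opposite differences. Cpt1a (ENSMUSG00000024900), the malonyl-CoA-sensitive entry enzyme of liver and astrocytes, measured 5.35, 4.04 and 4.65 FPKM in chow mice against 3.64, 3.85 and 4.07 FPKM on the ketogenic diet. The diets overlapped by a narrow margin, between chow replicate 2 and ketogenic replicate 3, and the log2 change was -0.24 ± 0.13 (SE), or -0.15 without chow replicate 1 and -0.08 with the thalamic covariate. Cpt1c (ENSMUSG00000007783), a neuronal isoform of the endoplasmic reticulum that binds malonyl-CoA but has little transferase activity, measured 10.4, 11.8 and 10.96 FPKM in chow mice against 13.9, 14.8 and 14.2 FPKM on the ketogenic diet. All 3 ketogenic mice lay above all 3 chow mice, with 2471 to 4386 reads per library. The log2 change was 0.36 ± 0.09 (SE, 95% interval 0.14 to 0.58), with an unadjusted limma p of 0.00678 and an adjusted p of 0.752. Leaving out any 1 library gave 0.32 to 0.40, and the thalamic covariate gave 0.28. As Cpt1c is a neuronal gene, the excitatory neuron sums stand beside it, in replicate order 358, 652 and 800 FPKM in chow mice against 998, 881 and 589 FPKM in ketogenic mice. The sums of 7 inhibitory neuron markers were 261, 535 and 395 FPKM in chow mice against 440, 538 and 482 FPKM in ketogenic mice. What part neuronal content has in the Cpt1c difference was not tested. In the earlier-build annotation, 6.53% of its exonic bases overlap a gene on the opposite strand.

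Set within each library, Cpt1c made up 66.0%, 74.1% and 69.9% of the summed Cpt1 FPKM in chow mice against 79.0%, 79.2% and 77.5% on the ketogenic diet. The diets did not overlap in this share. The ratio of Cpt1c to Cpt1a was 2.41 ± 0.480 (SD, n = 3) on chow and 3.72 ± 0.198 on the ketogenic diet. A two-sided exact permutation test gave p = 0.1, the smallest that 3 against 3 allows, and an adjusted p of 0.525 over the 7 ratios compared. The ratio was chosen after the values of both genes were seen. The share and this test therefore restate their differences and give no separate support for them. Cpt1b, the muscle isoform, was close to absent, at 0.0373 to 0.0811 FPKM with 7 to 11 reads per library, and was not tested. In the annotation 81.4% of its exonic bases lie in a further gene on the same strand, so its reads are uncertain.

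The promoter windows of Cpt1a and Cpt1c are shown because this pair differed in opposite directions. Both are from RefSeq on GRCm38.p6, 250 bases before to 50 after the start, 5′ to 3′ on the gene's strand, at chr19:3323051-3323350 (plus strand) for Cpt1a and chr7:44974802-44975101 (minus strand) for Cpt1c. Capitals mark the letters CCAAT on either strand.
Cpt1a: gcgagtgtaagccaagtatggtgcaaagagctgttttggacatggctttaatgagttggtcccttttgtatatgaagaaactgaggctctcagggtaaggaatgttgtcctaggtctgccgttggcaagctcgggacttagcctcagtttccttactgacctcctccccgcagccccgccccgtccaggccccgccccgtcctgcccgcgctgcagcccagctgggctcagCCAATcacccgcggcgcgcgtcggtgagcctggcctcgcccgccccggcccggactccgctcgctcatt
Cpt1c: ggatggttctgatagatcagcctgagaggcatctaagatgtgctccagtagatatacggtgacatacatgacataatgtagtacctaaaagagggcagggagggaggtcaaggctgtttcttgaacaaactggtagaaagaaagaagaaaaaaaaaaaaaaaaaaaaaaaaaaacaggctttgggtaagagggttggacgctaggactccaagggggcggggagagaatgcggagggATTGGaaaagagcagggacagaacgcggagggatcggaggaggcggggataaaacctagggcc
Each window holds 1 such match. The Cpt1a window has 62.3% G and C and the Cpt1c window 47.3%, beside a median of 52.7% over all windows.

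Further along the shuttle, Cpt2 had the largest difference of any member and a split within the ketogenic group. Cpt2, the transferase of the inner membrane, measured 4.52, 2.95 and 3.31 FPKM in chow mice against 1.83, 1.74 and 3.34 FPKM on the ketogenic diet. Ketogenic replicates 1 and 2 lay below every chow library, while ketogenic replicate 3 lay within the chow range. The log2 change was -0.57 ± 0.26 (SE, 95% interval -1.19 to 0.04) and ranged from -0.82 to -0.42 when 1 library was left out. Slc25a20, the carnitine-acylcarnitine carrier, measured 3.01, 2.45 and 2.39 FPKM in chow mice against 2.37, 2.28 and 2.22 FPKM on the ketogenic diet. The groups were separate only by the small gap between chow replicate 3 and ketogenic replicate 1, and the change was -0.15 ± 0.12 (SE). It was -0.07 without chow replicate 1 or -0.03 with the thalamic covariate. The carnitine transporter of the plasma membrane, Slc22a5, ranged from 2.91 to 4.96 FPKM with both extremes in ketogenic mice (log2 change -0.21). Crat, which exchanges acetyl groups between carnitine and coenzyme A, measured 8.26 ± 0.381 FPKM (SD, n = 3) on chow and 8.51 ± 0.719 FPKM on the ketogenic diet.

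All 9 tested acyl-CoA dehydrogenases had a negative log2 change, with a median of -0.17, where 56.9% of all genes did. Without chow replicate 1 the median was -0.10. With the thalamic covariate it was -0.06, and 5 of 9 were negative beside 53.1% of all genes. The change of the medium-chain enzyme Acadm was as large under both. Acadm (ENSMUSG00000062908), the enzyme lost in the commonest inherited defect of beta-oxidation, measured 8.40, 8.97 and 8.79 FPKM in chow mice against 6.602, 6.57 and 7.598 FPKM on the ketogenic diet. Every ketogenic mouse lay below every chow mouse, and chow replicate 1 was the lowest of its group. The log2 change was -0.32 ± 0.10 (SE, 95% interval -0.56 to -0.07), with an unadjusted limma p of 0.0184 and an adjusted p of 0.752. It was -0.34 without chow replicate 1, -0.35 with the thalamic covariate, and between -0.38 and -0.28 when any 1 library was left out.

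The long-chain dehydrogenases differed less clearly. Acadl had the highest mean FPKM of the family. It measured 19.8, 15.2 and 18.0 FPKM in chow mice against 14.8, 13.4 and 19.0 FPKM on the ketogenic diet, with wide overlap. Its change of -0.17 was -0.08 without chow replicate 1. Acadvl, the very-long-chain enzyme of the inner membrane, measured 10.1 ± 2.15 FPKM (SD, n = 3) against 8.25 ± 0.175 FPKM. Its highest value was 12.3 FPKM in chow replicate 1, and its chow mean was 9.01 FPKM without that library. Its log2 change of -0.26 was then -0.11. In the annotation, 42.9% of its exonic bases overlap Dvl2 on the opposite strand, a gene whose own log2 change was -0.04. The short-chain enzyme Acads had a change of -0.09 (95% interval -0.47 to 0.30) and spanned 2.09 to 3.12 FPKM within the ketogenic group alone.

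Of the more distant family members, Acad11, which is known to act on long and very long chains including hydroxylated ones, measured 2.34, 1.78 and 1.62 FPKM in chow mice against 1.35, 1.32 and 1.45 FPKM on the ketogenic diet. The groups did not overlap, and the log2 change was -0.35 ± 0.15 (SE) and -0.23 without chow replicate 1 or -0.19 with the thalamic covariate. Its paralogs Acad10 and Acad12 were low. Acad12 measured 0.463, 0.506 and 0.561 FPKM in chow mice against 0.371, 0.434 and 0.429 FPKM on the ketogenic diet. Its groups were also separate, on 124 to 170 reads per library, but its mean was under the filter and it was not tested. Acadsb and Acad8, which belong to branched-chain amino acid breakdown, had changes of -0.24 and -0.14. Acad9, also an assembly factor of respiratory complex I, had one of -0.11.

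**Figure D3:**
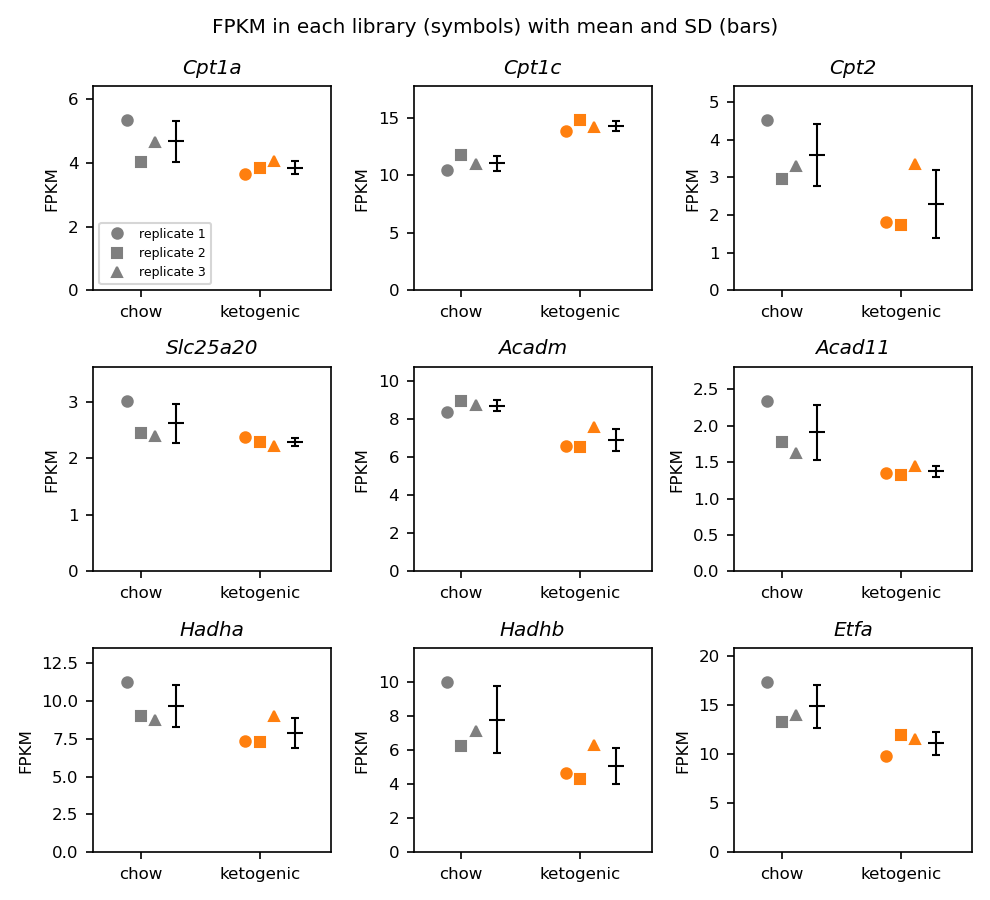
FPKM (vertical axes, from 0) of 9 genes in each of the 3 chow and 3 ketogenic mice, with symbols for the replicate number and a bar for mean ± SD. The diets are apart in Cpt1c, Slc25a20, Acadm, Acad11 and Etfa and overlap in Cpt1a, Cpt2, Hadha and Hadhb.

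The later steps of the spiral were lower in mean on the ketogenic diet in all 5 tested members, with overlapping groups in each. Of all genes tested, 56.9% had a negative log2 change. The median change of these 5 members was -0.24, or -0.12 without chow replicate 1 and -0.05 with the thalamic covariate. The trifunctional protein joins an alpha chain, Hadha, carrying the hydratase and hydroxyacyl-CoA dehydrogenase, with a beta chain, Hadhb, carrying the thiolase. Hadha (ENSMUSG00000025745) measured 11.2, 8.99 and 8.76 FPKM in chow mice against 7.35, 7.25 and 9.002 FPKM on the ketogenic diet. Hadhb (ENSMUSG00000059447) measured 9.997, 6.23 and 7.14 FPKM in chow mice against 4.63, 4.33 and 6.29 FPKM on the ketogenic diet. Both subunits had the same order within the ketogenic group, replicate 3 highest and replicate 2 lowest, and both were highest of all in chow replicate 1. Neither trait is particular to them. The same ketogenic order was seen in Cpt2, Acadl, Acadm and Etfdh, among others, and chow replicate 1 was highest in 22 of 34 tested members. The log2 changes were -0.28 ± 0.14 (SE) for Hadha and -0.56 ± 0.21 for Hadhb, the latter with an unadjusted limma p of 0.035 and an adjusted p of 0.752. Without chow replicate 1 they were -0.17 and -0.38, and with the thalamic covariate -0.12 and -0.24. The ratio of Hadhb to Hadha was 0.7996 ± 0.0992 (SD, n = 3) on chow and 0.643 ± 0.0517 on the ketogenic diet. It had an exact permutation p of 0.2, two-sided, and the groups overlapped.

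Hadha and Hadhb lie head to head, and their promoter windows are shown because they encode both chains of 1 complex. The RefSeq starts lie 273 bases apart on GRCm38.p6, and 228 bases belong to both windows. The Hadhb window, chr5:30155003-30155302 on the plus strand, is printed 5′ to 3′ with the shared bases in capitals, and the Hadha start lies on the other strand outside it.
Hadhb: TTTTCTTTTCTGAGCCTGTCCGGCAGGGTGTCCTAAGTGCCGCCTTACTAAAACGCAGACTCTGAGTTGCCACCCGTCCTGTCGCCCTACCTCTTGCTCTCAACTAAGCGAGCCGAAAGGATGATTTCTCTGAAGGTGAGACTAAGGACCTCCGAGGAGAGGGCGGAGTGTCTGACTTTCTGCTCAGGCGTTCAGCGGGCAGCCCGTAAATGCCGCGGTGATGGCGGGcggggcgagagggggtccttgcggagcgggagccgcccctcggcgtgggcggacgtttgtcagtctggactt

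The single-function matrix enzymes had smaller differences. Hadh, the short-chain hydroxyacyl-CoA dehydrogenase, measured 4.50 ± 0.749 FPKM (SD, n = 3) on chow and 3.74 ± 0.594 FPKM on the ketogenic diet, a log2 change of -0.24. Echs1, the short-chain hydratase, had a change of -0.13 (95% interval -0.41 to 0.16). Acaa2, the medium-chain thiolase, spanned 4.67 to 8.80 FPKM within the ketogenic group and 6.94 to 8.36 FPKM on chow, with a change of -0.15.

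In electron transfer, Etfa (ENSMUSG00000032314), the alpha chain of the flavoprotein that accepts electrons from the dehydrogenases, measured 17.4, 13.3 and 14.0 FPKM in chow mice against 9.81, 12.03 and 11.6 FPKM on the ketogenic diet. All 3 ketogenic mice lay below all 3 chow mice. The log2 change was -0.40 ± 0.14 (SE, 95% interval -0.74 to -0.07), with an unadjusted limma p of 0.0252 and an adjusted p of 0.752, and -0.29 without chow replicate 1 or -0.23 with the thalamic covariate. Etfdh, which passes these electrons on to ubiquinone, had a change of -0.12 with overlapping groups. Etfb, the beta chain that pairs with Etfa in equal number, was read at 0.155 to 0.540 FPKM on 8 to 35 reads per library and was not tested. In the annotation, 58.2% of its exonic bases belong also to a further gene on the same strand. Whether the counting left out reads of that stretch was not tested.

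The auxiliary enzymes for double bonds had negative changes, and those of Eci1 and Eci2 rested on chow replicate 1. Eci1, an enoyl-CoA isomerase, measured 6.84, 3.72 and 4.42 FPKM in chow mice against 3.53, 4.38 and 4.90 FPKM on the ketogenic diet. Chow replicates 2 and 3 lay within the range of the ketogenic mice, and the log2 change of -0.17 was 0.06 without it. Eci2 likewise went from -0.08 to 0.01. Decr1, the dienoyl-CoA reductase for polyunsaturated chains, had -0.17 and, without that library, -0.12.

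The thioesterases, which free fatty acids from coenzyme A, had no common direction. Acot13 had the highest mean FPKM of them. It measured 60.5, 46.6 and 51.8 FPKM in chow mice against 53.5, 55.6 and 47.6 FPKM on the ketogenic diet. The groups overlapped in full, with a change of -0.01 (95% interval -0.32 to 0.29). Acot9 had a change under 0.01. Acot2, a mitochondrial thioesterase and known PPAR-alpha target, measured 1.52 ± 0.221 FPKM (SD, n = 3) against 1.93 ± 0.438 FPKM, with a change of 0.25 that was 0.33 without chow replicate 1. Its highest value, 2.39 FPKM, was in ketogenic replicate 3, and reads may be split with its close paralog Acot1. Mlycd, which removes the malonyl-CoA that holds back Cpt1a, measured 5.13 ± 0.588 FPKM against 5.04 ± 0.216 FPKM.

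**Figure D4:**
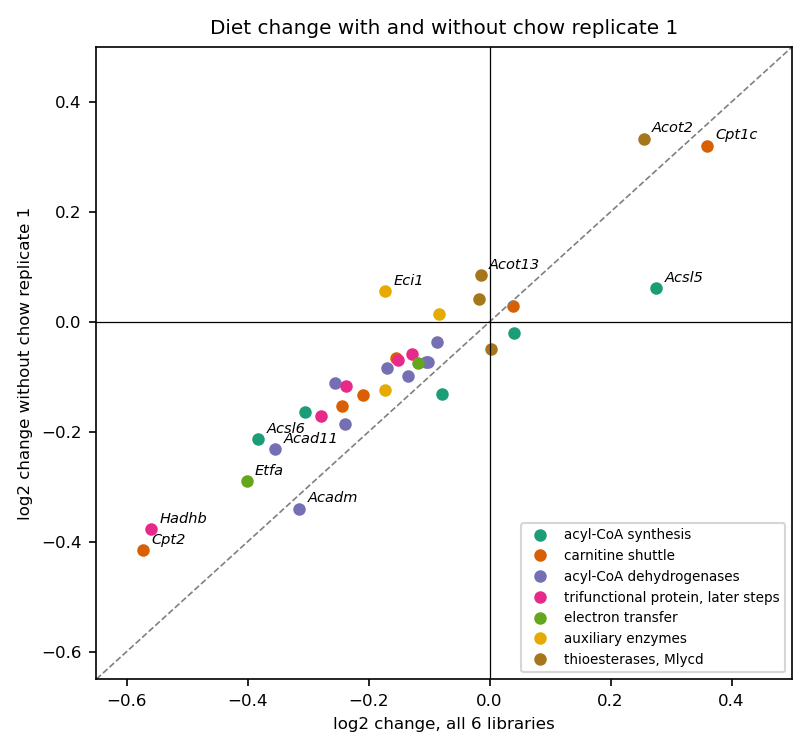
Log2 change (ketogenic minus chow) of the 34 tested genes from all 6 libraries (horizontal axis) and without chow replicate 1 (vertical axis), coloured by step, with a dashed line where both are equal. Most genes left of 0 lie above the line, nearer to 0 without that library, while Acadm and Cpt1c lie close to the line at -0.34 and 0.32.

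Other genes of fatty acid breakdown were read from further lists. In peroxisomal beta-oxidation, which shortens very long chains before they reach mitochondria, 10 of 13 tested genes had negative changes with a median of -0.15, and groups did not overlap in 4 lower and 1 higher. Of all genes tested, 56.9% were negative, and groups did not overlap in 7.49% that were lower and 4.9% that were higher. The thiolase Acaa1a measured 14.1 ± 1.39 FPKM (SD, n = 3) on chow and 10.6 ± 0.899 FPKM on the ketogenic diet, and Scp2, the sterol carrier with thiolase activity, 34.7 ± 1.11 against 29.7 ± 0.527 FPKM. Abcd3, the peroxisomal importer, had a change of -0.27. Without chow replicate 1 the median of this list was -0.11 and 10 of 13 were negative, beside 56.5% of all genes. In the list of other synthetases, thioesterases and acyl-CoA binding proteins, 17 of 20 were negative with a median of -0.10. Without chow replicate 1, 10 of 20 were negative with a median of -0.02. With the thalamic covariate, 7 of 20 were negative, beside 53.1% of all genes, with a median of 0.05. Its smallest unadjusted p-values belonged to Acbd5, Acsf2 and Acot4, with changes of -0.22, -0.22 and 0.36.

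Genes that control the pathway had a median change of -0.13, with 12 of 16 negative, beside 56.9% of all genes tested. Without chow replicate 1 the median was -0.08. With the thalamic covariate it was -0.02, and 9 of 16 were negative beside 53.1% of all genes. Prkag1, a subunit of the energy sensor AMPK, measured 2.65 ± 0.115 FPKM (SD, n = 3) on chow and 3.23 ± 0.269 FPKM on the ketogenic diet, without overlap. Lpin1, a coactivator of PPAR-alpha as well as a phosphatidate phosphatase, and Sirt5, a mitochondrial deacylase, had changes of -0.34 and -0.24. Sirt5 also had separate groups, lower on the ketogenic diet. In this list groups did not overlap in 1 lower and 1 higher gene, beside 7.49% and 4.9% of all genes tested. For carnitine supply, Aldh9a1, Slc22a4 and Bbox1, the enzyme of the last step of carnitine synthesis, had changes of -0.30, -0.46 and -0.64 with the highest value in chow replicate 1 in each. The median of these 3 was -0.46, went to -0.18 without that library and was 0.02 with the thalamic covariate. No gene of these 4 lists passed limma's test, with adjusted p of 0.752 or more.

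Because the series' title names PPAR signalling, the promoter windows of the members were searched for known motifs on both strands. Windows were found for 31 of the 37 members, 34 windows in all. The PPAR element, a direct repeat of AGGTCA with 1 free base between, was in 0 of the 34, where 0.0396% of all 32851 windows hold it. TCAAGGTCA, the element of estrogen-related receptors, was in 1, of Acsl6, against 0.423% of all windows. The palindromic element of NRF1, a regulator of mitochondrial genes, was in 3, of Acad10, Acad12 and Etfdh, against 0.971% of all. TGACGTCA, the cyclic AMP element, was in 0, against 1.79% of all. CCAAT was in 17, against 37.4% of all. These are matches of letters in a window of 300 bases, and no match says only that these letters are not in this window.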

How the data were processed

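Whole-tissue messenger RNA was sequenced from 6 mice, 1 library each. Per the labels' protocols, messenger RNA was selected with oligo(dT) beads, fragmented, and copied from random primers into libraries read from both ends. The submitters' processing notes name HISAT2, featureCounts (Subread) and the GRCm39 build. Tool versions, the annotation, strandedness and how ambiguous reads were handled were not given in the sources used here. The authors deposited FPKM per gene. Columns were matched to mice by name. Symbols came from GENCODE M21 on GRCm38, so positions are given for promoter windows only, from RefSeq's table on GRCm38.p6, and exon overlaps hold for that annotation.

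A gene's FPKM values were integer multiples of 1 step in 100% of the 33862 genes above 0 (tolerance 0.001), which gave reads per library up to a factor common to a gene's libraries. Genes averaging 0.5 FPKM or more entered limma 3.58.1 (R 4.3.3, trend, two-sided) on log2(FPKM + 0.5), diet as the only term, Benjamini-Hochberg adjustment over 16009 genes, and a threshold of 0.05. A fold on this scale understates the change of low genes. Nothing says whether mice shared cages or processing days. Marker levels are medians of deviations from gene means. The fit was tested on simulated data.

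The members, lists, markers and tests were chosen with earlier results of these data known, and motifs and within-library ratios after the values were seen. By the naming rule, values in every library are given for members with non-overlapping groups or an unadjusted p under 0.05. They are also given for the member of each step with the highest mean FPKM, the Cpt1 isoforms, Acadm, Hadha and Hadhb. Up to 3 genes per further list are named by smallest unadjusted p. Cpt2 was added for its split. Alternatives are in the closing section.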

Additional observations from a re-analysis of the deposited data

How the results depend on the processing

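Under each of 19 other settings, limma called 0 genes and 0 members. Members with a negative change numbered 31 of 37 without a filter, 26 of 31 with the 2 FPKM filter and 23 to 29 of 34 otherwise, and their median ran from -0.23 to -0.05. They were a filter of 2 FPKM or none, pseudocounts of 1 and 0.1, TPM, quantile normalization, median centring, library quality weights, robust eBayes, a replicate block, thalamic or choroid plexus levels as covariates, each library left out, and, added after seeing the data, voom on recovered reads. DESeq2 and edgeR were planned and not run, because the deposited unit is FPKM, although voom was run on the recovered reads in their place. The deviations of same-numbered libraries had correlations of -0.04, 0.48 and -0.21 for numbers 1, 2 and 3. Among same-numbered libraries, only those numbered 2, both with high striatal sums, deviated together. Across numbers, chow replicate 3 and ketogenic replicate 1 had a correlation of 0.45, and chow replicate 1 and ketogenic replicate 3 one of 0.31. The numbers were therefore not taken as pairs. As each number occurs once per diet, the replicate block cannot move the estimates, and its median of -0.15 with 28 members lower was fixed in advance. Robust eBayes likewise leaves the estimates as they are, so neither setting could change a sign.

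Of the 34 tested members, 21 had no change of sign in any setting that tested them (Acad10, Acad11 and Acot2 were not tested under the 2 FPKM filter), and members that changed sign had a main change of at most 0.26 in size. The cause of each reversal was not tested. With the thalamic covariate the changes were 0.013 for Acad9, 0.019 for Acadl, 0.027 for Acads, 0.014 for Acadvl, 0.15 for Acot13, -0.0700 for Acot9, -0.066 for Acsl1, -0.0103 for Crat, 0.198 for Eci1, 0.062 for Eci2 and 0.021 for Mlycd. With the choroid plexus covariate they were 0.021 for Acads, -0.029 for Acot9 and -0.0076 for Crat. With library quality weights they were 0.026 for Acot13, -0.049 for Acot9, -0.011 for Acsl1 and 0.065 for Mlycd. Centring gave 0.0401 for Acot13 and 0.036 for Mlycd, quantile normalization 0.035 for Mlycd, and TPM 0.00038 for Acot13. With 1 library left out, the ranges were -0.34 to 0.081 for Acaa2, -0.22 to 0.019 for Acads, -0.10 to 0.085 for Acot13, -0.061 to 0.074 for Acot9, -0.021 to 0.087 for Acsl1, -0.13 to 0.013 for Acsl4, -0.025 to 0.085 for Crat, -0.34 to 0.056 for Eci1, -0.14 to 0.014 for Eci2 and -0.11 to 0.042 for Mlycd. With 3 mice per diet, small changes such as these have intervals that reach across 0.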

Other observations

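Genes allied to the dehydrogenases were read from lists as well. Among genes of flavin supply and partners of the electron transfer flavoprotein, 5 of 7 had negative changes with a median of -0.07. Over all genes tested, 56.9% were negative and the median was -0.04. Etfrf1, a regulator of that flavoprotein, measured 10.4 ± 0.629 FPKM (SD, n = 3) on chow and 8.14 ± 0.987 FPKM on the ketogenic diet, a log2 change of -0.34. Its groups did not overlap, where 7.49% of all genes tested were lower without overlap. Slc25a32, the mitochondrial carrier of folate and flavin, and Rfk, the riboflavin kinase, had changes of -0.28 and -0.12.

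Among mitochondrial acyl-CoA enzymes of amino acid breakdown, 9 of 13 had negative changes, beside 56.9% of all genes tested. The median of this list was -0.13, and -0.04 without chow replicate 1. Hibch, of valine breakdown, measured 2.92 ± 0.318 FPKM (SD, n = 3) on chow and 2.12 ± 0.385 FPKM on the ketogenic diet. Acat1, the thiolase shared by isoleucine and ketone body breakdown, measured 23.9 ± 1.86 against 20.3 ± 1.33 FPKM. Bckdha, of the branched-chain keto acid dehydrogenase, had a change of 0.31 with overlapping groups. In limma's test no gene of these lists had an adjusted p under 0.752.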
